A study of Mus musculus with 2 samples.

Results

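The 10 genes Fos, Fosb, Fosl1, Fosl2, Jun, Junb, Jund, Atf3, Maff and Batf, of the AP-1 group of transcription factors, were compared between mouse bone marrow samples of 2 genotypes, both labelled as leukaemic stem cells. The PirBTM sample went against that label in its markers: 8 of 9 leukaemic stem cell markers were at least 2-fold lower there. Among them, Hoxa5, Hoxa10 and Cd34 were below background there and could not have counted as higher. At least 2-fold higher were 11 of 11 macrophage, 7 of 7 erythroid, 6 of 6 T and NK cell and 5 of 6 megakaryocyte markers detected. So were 4 of 5 B cell, 4 of 8 neutrophil and 2 of 5 stromal markers. Those detected in PirBTM only could not have counted as lower. Of the 9445 genes above background on at least 1 array, 12.8% were at least 2-fold higher and 9.61% lower. The wild-type sample also held mature cell markers. Its summed normalized intensities were 110902 for neutrophil, 28873 for erythroid and 17098 for leukaemic stem cell markers. Such sums rest on their brightest probes and do not rank cell types. Of the erythroid markers, Hbb-bt had a wild-type log2 intensity of 13.75, but Car1 one of 6.04. The AP-1 genes were taken as the probes whose gene symbol in the platform annotation is one of these 10 names. Named probes were found for 9 of the 10 genes, 13 probes in all of 45281 on the array. Fosl1 was not analysed here. Of the 9 genes with a probe, 8 were above background on at least 1 array, which required a detection p-value below 0.01.

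Total RNA came from mouse bone marrow cells labelled as leukaemic stem cells, on a C57BL/6J background and at 9 weeks of age. Both samples carried MLL-AF9, a leukaemia oncogene that joins Kmt2a, which encodes a histone methyltransferase, to Mllt3. The labels name the samples PirBTM and wild type, and give the fusion for both. Pirb encodes a receptor that restrains myeloid cells and B cells. Pirb itself was not analysed here, and its level could not serve as a check of the labels. The sources used here do not say what PirBTM alters, how the cells were sorted, or how many mice or leukaemias went into each sample. Each genotype had 1 Illumina bead array, and the arrays were positions of 1 BeadChip. All values are therefore without replicates and no test between genotypes was possible. Array position and genotype cannot be told apart.

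AP-1 factors are basic leucine zipper proteins that bind DNA as dimers. FOS proteins must pair with a partner such as a JUN protein, whereas JUN proteins can also pair with each other, and the dimers recognise the sequence TGANTCA or the related cAMP response element TGACGTCA. Fos, Fosb, Jun, Junb and Atf3 are immediate early or early response genes: their transcription is switched on quickly by MAP kinase, calcium and stress signals, and their mRNAs are short-lived. In myeloid cells, AP-1 factors take part in monocyte and macrophage differentiation and in the induction of inflammatory genes.

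Start-site sequences are shown for the 4 genes whose values carry the comparison: Fos and Junb, which had the largest measured ratios, Atf3, which had the largest lower bound, and Jun, for the founding member of the JUN proteins. Each runs from 250 bases before to 50 bases after a RefSeq start (GRCm38.p6), and capitals mark the letters of motifs searched on both strands. These were TGANTCA and TGACGTCA (above), TGACATCA of the type known in the Jun promoter, the partial cAMP response element TGACG (which also lies within TGACGTCA), TATAA for the TATA box, and the CArG box bound by serum response factor. The windows are chr12:85473640-85473939 on the plus strand for Fos, and chr8:84978699-84978998 for Junb, chr1:191183284-191183583 for Atf3 and chr4:95052173-95052472 for Jun, all on the minus strand.
Fos: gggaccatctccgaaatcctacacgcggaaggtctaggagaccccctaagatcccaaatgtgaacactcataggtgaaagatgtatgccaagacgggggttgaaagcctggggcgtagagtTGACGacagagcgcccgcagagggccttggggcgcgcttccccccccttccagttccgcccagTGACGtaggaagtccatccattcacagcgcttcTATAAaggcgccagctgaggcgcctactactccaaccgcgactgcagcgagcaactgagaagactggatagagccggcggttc
Junb: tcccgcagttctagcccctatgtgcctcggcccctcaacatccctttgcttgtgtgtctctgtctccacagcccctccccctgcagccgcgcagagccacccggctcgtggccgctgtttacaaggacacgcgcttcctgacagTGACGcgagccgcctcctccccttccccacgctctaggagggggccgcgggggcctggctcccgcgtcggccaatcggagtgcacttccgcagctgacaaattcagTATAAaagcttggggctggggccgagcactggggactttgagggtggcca
Atf3: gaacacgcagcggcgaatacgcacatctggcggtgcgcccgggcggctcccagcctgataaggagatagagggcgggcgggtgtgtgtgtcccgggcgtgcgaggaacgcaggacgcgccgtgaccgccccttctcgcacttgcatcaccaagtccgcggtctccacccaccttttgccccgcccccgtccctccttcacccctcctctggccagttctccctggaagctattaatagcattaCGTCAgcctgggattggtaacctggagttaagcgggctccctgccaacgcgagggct
Jun: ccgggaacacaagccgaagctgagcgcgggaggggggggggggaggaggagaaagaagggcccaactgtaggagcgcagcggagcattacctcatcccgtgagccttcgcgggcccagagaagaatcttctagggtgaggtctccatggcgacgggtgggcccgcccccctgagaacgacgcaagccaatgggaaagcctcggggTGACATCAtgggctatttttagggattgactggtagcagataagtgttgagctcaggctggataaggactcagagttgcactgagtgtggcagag

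In the Fos window, TGACG stood at -129 and at -66 from the start and TATAA at -33. The Junb window held TGACG at -106 and TATAA at the start itself. The Atf3 window held 1 TGACG, on its reverse strand, with its letters ending at -3, and the Jun window held TGACATCA at -45. RefSeq windows were found for 9 of the 10 genes, 11 windows in all because Maff had 3. TGACG was found in 7 of the 11 windows and in 20.8% of all 32851 start-site windows of the same length. TGACGTCA was found in 1 of the 11, a Maff window, against 1.79% of all windows. TGACATCA was found in 2 of the 11 (Jun and Maff), against 3.62%. TATAA was found in 2 of the 11, against 24.9%. TGANTCA (7.81% of all windows) and the CArG box (1.63%) were found in 0 of the 11. These are matches of letters within 300 bases and say nothing about binding. Motifs further than 250 bases before a start were not searched, so a count of 0 does not mean that a gene lacks the motif.

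AP-1 transcripts were brighter in the PirBTM sample. Of the 8 genes above background on at least 1 array, 7 were at least 2-fold higher in PirBTM, 0 were at least 2-fold lower, and Batf lay in between. The same held for 12.8% (higher) and 9.61% (lower) of the 9445 genes of the whole array that met this detection limit. Higher genes made up 57.1% of these 2-fold differences. That share was 49.9% with both arrays required above background, 68.5% without background correction, 69.3% after median scaling and 75.7% after cyclic loess. At 3-fold the AP-1 count was 6 of 8, against 7.87% of all genes. Atf3 was above background in PirBTM only and could not have counted as lower. With both arrays required above background, 6 of 7 AP-1 genes were at least 2-fold higher, against 9.82% of all such genes. The median log2 ratio of the 8 genes was 1.96, where that of all 9445 genes was -0.16. The 10 genes were chosen with earlier results of these arrays known, so the count describes them and is no independent support. More cells with these transcripts and more of these transcripts per cell in PirBTM cannot be told apart in bulk RNA.

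With no replicates, the error given here is how far probes for 1 gene disagreed, measured on 2944 genes whose 2 brightest probes were detected in both samples. It amounted to an SD of 0.30 per probe, on the scale of the log2 ratio. It was 0.35 for pairs whose dimmest log2 intensity was below 8, and 0.24 for those from 8 to 10. It holds none of the variation between mice or RNA preparations. Ranges beside folds below are the fold within 1 such SD of 0.30.

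**Figure D1:**
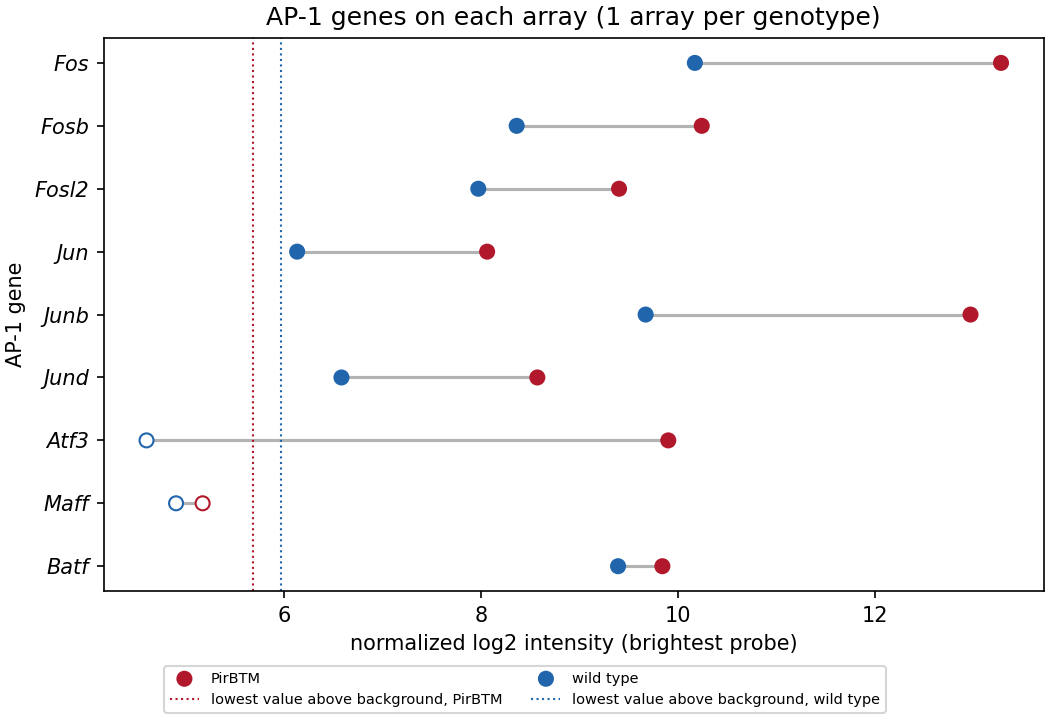
Normalized log2 intensity of the brightest probe of each AP-1 gene in PirBTM (red) and wild type (blue), 1 array per genotype. Open circles are values below background, and dotted lines mark the lowest value above background on each array (5.68 and 5.97); the 8 genes above background on at least 1 array lie to the right in PirBTM, and Maff is below background on both.

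Of the FOS proteins' genes, Fos, whose product is the classical partner of JUN, had a scanner signal of 10541.2 in PirBTM and 1171.6 in wild type. After background correction and quantile normalization its log2 intensities were 13.28 and 10.17, an 8.65-fold higher value in PirBTM (7.04 to 10.6). Fos was thus well above background in both samples, and far brighter in one. Of the 7882 genes above background on both arrays, 106 (1.34%) had a log2 ratio at least as high as that of Fos.

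Fosb, which encodes a FOS protein with its own activation domain, had scanner signals of 1441.9 in PirBTM and 405.2 in wild type. Its log2 intensities of 10.24 and 8.36 gave a 3.69-fold higher value (3 to 4.53). Fosl2, which encodes FRA-2, a FOS protein that lacks the strong activation domain of FOS, had scanner signals of 882.8 and 335.7 by its brightest probe. Its log2 intensities of 9.40 and 7.97 gave a 2.69-fold higher value (2.19 to 3.3). The other 2 probes of Fosl2 were below background on both arrays, with scanner signals of 148.9 to 163.3 in PirBTM and 149.8 to 152.5 in wild type, and do not check this value. The 3 measured FOS genes were all higher in PirBTM, with Fos ahead of both others.

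Of the JUN proteins' genes, Junb, which encodes a JUN protein that can restrain JUN as well as activate genes in myeloid cells, had scanner signals of 8441.2 in PirBTM and 852.0 in wild type. Its log2 intensities of 12.97 and 9.67 gave a 9.81-fold higher value (7.98 to 12), the largest ratio measured among the AP-1 genes above background on both arrays. A log2 ratio at least as high was found in 96 of the 7882 genes (1.22%). The second Junb probe, annotated to another transcript record, was below background on both arrays (scanner signals of 168.0 and 156.7).

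Jun encodes c-JUN, the partner of FOS that also forms homodimers, and Jund encodes a JUN protein present in many resting cells. Jun had scanner signals of 438.6 in PirBTM and 181.1 in wild type, where its detection p-value was 0.00427. Its log2 intensities of 8.06 and 6.13 gave a 3.81-fold higher value (3.1 to 4.68). Jund had scanner signals of 561.7 and 202.0, with a wild-type detection p-value of 0.00214, and its log2 intensities of 8.57 and 6.58 gave a 3.99-fold higher value (3.25 to 4.9). Both genes were dim in the wild-type sample, 0.16 and 0.61 log2 units over the lowest value above background, and their folds depended on the background correction. Without it Jun was 1.99-fold and Jund 2.28-fold higher, and in the authors' deposited processed values they were 1.94-fold and 2.27-fold higher.

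Atf3 encodes a stress-induced factor that often represses inflammatory genes. Its scanner signal was 1185.4 in PirBTM and 133.3 in wild type, where its detection p-value was 0.658. Its log2 intensity was 9.90 in PirBTM and not above background in wild type (4.60), so that Atf3 was at least 15.2-fold higher in PirBTM. The bound is set against 5.97, the lowest log2 intensity above background on the wild-type array. Without background correction it was at least 5.69-fold, in the authors' deposited processed values at least 5.7-fold, and with cyclic loess at least 17.8-fold. Of the 1141 genes above background on the PirBTM array only, 57 had a bound at least as high.

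Batf encodes a small AP-1 protein that pairs with JUN proteins and IRF factors in lymphocytes and dendritic cells. It had scanner signals of 1144.7 in PirBTM and 720.0 in wild type, and log2 intensities of 9.84 and 9.39. Its 1.37-fold higher value (1.11 to 1.68) was 1.52 measuring SDs from no difference, so Batf stayed within 2 SDs. Maff encodes a small MAF protein, which has no activation domain. Both of its probes were below background on both arrays, with detection p-values of 0.0812 to 0.986, and Maff therefore has no ratio.

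**Figure D2:**
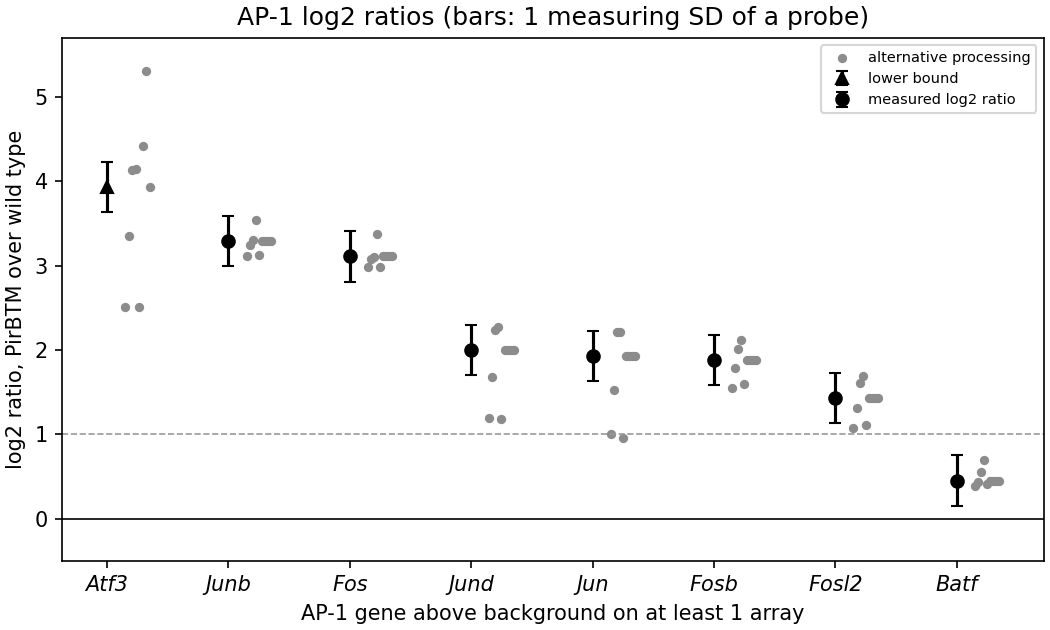
Log2 ratio of PirBTM over wild type for the 8 AP-1 genes above background on at least 1 array, with bars of 1 measuring SD (0.30); the triangle is the lower bound of Atf3, grey points are the same value under each alternative processing, and the dashed line is 2-fold. Atf3, Junb and Fos lie highest and Batf lowest, and the grey points spread most for Atf3, Jund and Jun.

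The AP-1 genes differed from one another in their log2 ratios. Of the 21 pairs among the 7 genes above background on both arrays, 14 differed by more than 0.84, which is 2 SDs of the difference between a pair of probes. Junb (3.29) and Fos (3.11) differed from each other by 0.18, and each was beyond 0.84 from the other 5 genes. Jund (2.0), Jun (1.93), Fosb (1.88) and Fosl2 (1.43) did not differ from each other beyond that range, their widest gap being 0.57 between Jund and Fosl2. Batf (0.45) was beyond it from each of the other 6 in these values. Without background correction Batf (0.39) was within it of Jun (1.0), Fosl2 (1.08) and Jund (1.19), and in the deposited processed values Batf (0.41) was within it of Jun (0.96), Fosl2 (1.11) and Jund (1.18). The range of 0.84 was measured on the background-corrected values only, and probe disagreement in those other settings was not measured. By log2 ratio the genes of FOS and JUN proteins thus interleaved, with 1 of each at the top. Without background correction and in the deposited processed values, Junb (3.11 and 3.12) and Fos (2.98 in both) also had the highest ratios of the 7 genes, and Batf (0.39 and 0.41) the lowest.

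The 3 genes outside the group with log2 ratios nearest to that of Junb were Plxnb2 (3.31), Gpr18 (3.32) and Pros1 (3.32). The likeness is the distance between log2 ratios over 2 arrays, at most 0.028 for these genes, and rests on a single value per gene.

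The regulators and partners of AP-1 were taken as lists. Members above background in PirBTM only could not have counted as lower. Above background in wild type were 12 of 13 kinase relay, 3 of 4 serum response, 5 of 8 phosphatase and 10 of 13 immediate early genes. So were 8 of 10 other leucine zipper, 10 of 12 target and 6 of 7 heat shock genes. The relay of MAP kinases that leads to AP-1 had a share of higher members near that of all genes: of 13 members above background on at least 1 array, 2 (15.4%, against 12.8%) were at least 2-fold higher, 0 lower and 11 in between, with a median log2 ratio of 0.16. Map3k8, the kinase TPL2 that acts downstream of Toll-like and TNF receptors, was 14.6-fold higher (log2 intensity 11.22 against 7.35), and Mapk11, the p38 beta kinase, was at least 3.55-fold higher. Mapk8, which encodes the JUN kinase JNK1, had a log2 ratio of -0.69, and Map2k6, a kinase of p38, of -0.79.

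Serum response factor and the ternary complex factors, which switch on Fos through the CArG box, had a median of 0.16 over 4 members, with 0 at least 2-fold apart in either direction. Of all genes, 12.8% were at least 2-fold higher and 9.61% lower. Srf had a log2 ratio of -0.13, Elk4 of 0.29 and Mrtfa of 0.03, and Elk3 was at least 1.51-fold higher. Of 4 genes for the turnover of JUN protein, 0 were at least 2-fold apart: Itch (-0.93) and Cops5 (-0.73) had negative log2 ratios, Fbxw7 (0.54) and Cop1 (0.17) positive ones.

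The phosphatases that end MAP kinase signals are themselves induced by them. Of 8 members, 5 (62.5%, against 12.8% of all genes) were at least 2-fold higher and 0 lower (against 9.61%). The median log2 ratio was 1.78 (1.55 with members at their bound). Dusp16, a phosphatase of JNK and p38, was 9.09-fold higher and Dusp6, a cytoplasmic MAP kinase phosphatase, 6.54-fold. Dusp10 was at least 1.72-fold higher, and Dusp4, above background in PirBTM only (log2 intensity 5.83), gave no bound. Of 6 genes that bind AU-rich mRNAs such as that of Fos, 2 (33.3%, against 12.8%) were at least 2-fold higher. These were Zfp36l1 at 12.6-fold and Zfp36, tristetraprolin, at 4.29-fold. Zfp36l2 (0.05) and Hnrnpd (-0.04) had log2 ratios within 1 measuring SD of 0.

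Of 13 other immediate early genes above background, 9 (69.2%, against 12.8% of all genes) were at least 2-fold higher and 0 lower (against 9.61%). The median log2 ratio was 1.80 (1.68 with bounds, and 0.71 with no detection filter). Klf4, a factor of monocytes, was 10.7-fold and Klf2 6.45-fold higher. Myc (-0.13) and Ier2 (-0.01) had log2 ratios near 0, and 6 of the 19 listed genes were below background on both arrays, among them Nr4a1, Ier5 and Btg2. Higher values were thus common in this list and not shared by all its members.

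Of the other basic leucine zipper genes, 2 of 10 (20%, against 12.8% of all genes) were at least 2-fold higher. At least 2-fold lower were 0, against 9.61% of all genes, and the median log2 ratio was 0.51 (0.27 with bounds). Batf3, a factor of conventional dendritic cells, was at least 29.6-fold higher (log2 intensity 10.86 in PirBTM, below background in wild type). Nfe2l2, the oxidative stress factor NRF2, was 2.15-fold higher. Nfe2, a factor of platelet precursors, had a log2 ratio of -0.17 and Atf7 of -0.14.

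Genes known from textbooks as AP-1 targets were counted separately. Of 12 above background, 7 (58.3%, against 12.8% of all genes) were at least 2-fold higher and 0 lower (against 9.61%). The median log2 ratio was 1.90 (1.30 with bounds). That median was 0.96 without background correction, 0.95 in the deposited processed values and 0.82 with no detection filter. Il1b, the cytokine interleukin 1 beta, was 22-fold higher and Hmox1, haem oxygenase, 11.6-fold. Vegfa (-0.60) and Gstp1 (-0.46) had negative log2 ratios. Each of these genes has other regulators, and AP-1 binding was not measured.

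**Figure D3:**
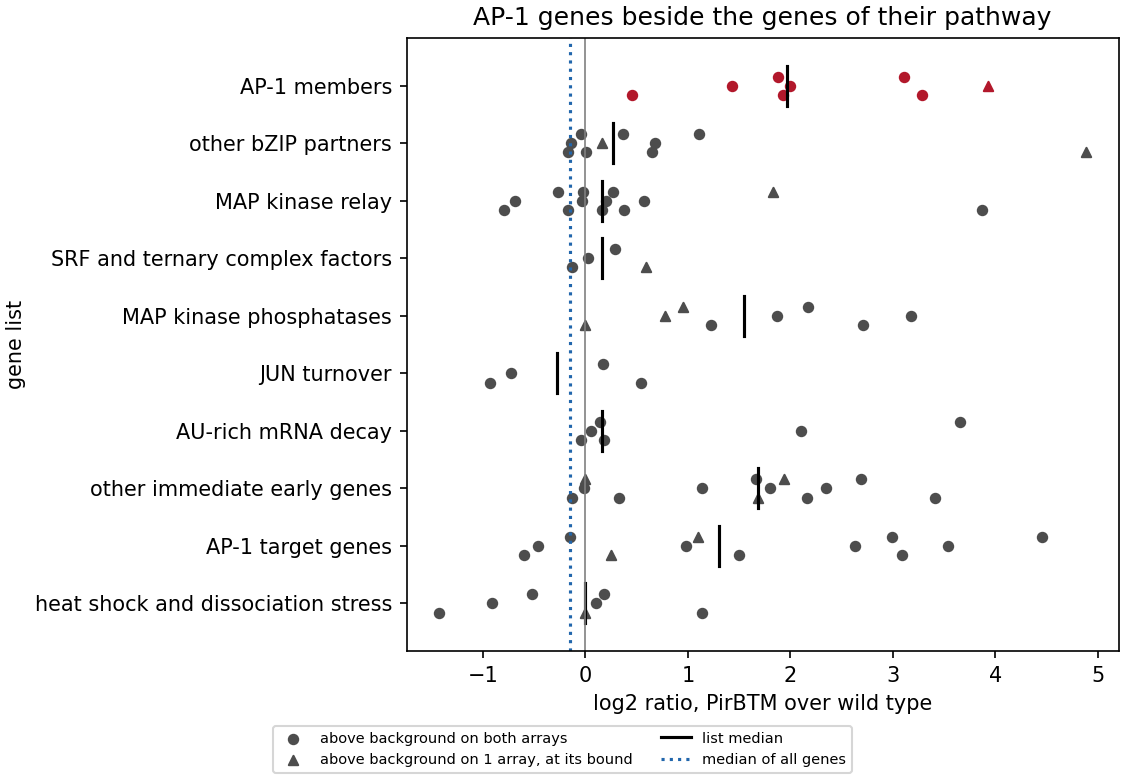
Log2 ratio of PirBTM over wild type for AP-1 genes (red) and 9 lists of regulators, partners, targets and stress genes (grey), 1 point per gene above background on at least 1 array; triangles are bounds (0 where there is none), black bars list medians, and the dotted line the median of all genes. AP-1, phosphatase and immediate early genes lie mostly above 1, whereas the kinase relay and serum response factor lists centre near 0.

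Heat shock genes, another class of stress-induced genes, had values on both sides of 0. Of 7 above background, 1 was at least 2-fold higher (Hsph1, 2.20-fold) and 1 at least 2-fold lower (Hspa1b, 2.69-fold). Of all genes, 12.8% were higher and 9.61% lower by this measure. The other 5 heat shock genes lay in between, and the list had a median log2 ratio of 0.10. Hsp90aa1 had a log2 ratio of -0.91 and Dnajb1 of 0.18. The summed normalized intensity of the list was 24175 in PirBTM and 22875 in wild type.

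Markers of other cell types were mostly higher in PirBTM, as were the AP-1 genes, in a single pair of arrays. Of all genes, 12.8% were at least 2-fold higher and 9.61% lower. Of the 11 monocyte and macrophage markers with a probe, all 11 were at least 2-fold higher in PirBTM, led by C1qb (52.1-fold) and Mrc1 (45.8-fold). Lowest were Adgre1 (2.25-fold) and Ccr2 (at least 2.07-fold). The summed normalized intensity of the list was 60648 against 7018. Neutrophil markers summed to 213419 against 110902, with 4 of 8 at least 2-fold higher, and erythroid markers to 112752 against 28873, with 7 of 7. The neutrophil markers S100a8 and S100a9 had log2 ratios of -0.16 and 0.39. At least 2-fold higher were also 4 of 5 B cell, 6 of 6 T and NK cell, 5 of 6 megakaryocyte and 2 of 5 stromal markers. Their summed intensities were 6561 against 1793, 6135 against 2195, 3333 against 565 and 22678 against 1113. In wild type, only 1 of these B cell, 2 T and NK cell, 4 megakaryocyte and 3 stromal markers were above background. Also above background there were 9 of 11 macrophage, 7 of 8 neutrophil and 6 of 7 erythroid markers. The others were counted through their detection in PirBTM alone and could not have counted as lower. Pax5, Cd8a, Cd4, Epb42, Mmp8, Col1a2, Lepr and Kdr were below background on both arrays. Of 9 markers of the leukaemic stem cells, 8 were at least 2-fold lower in PirBTM: Hoxa9 was 25.3-fold lower and Hoxa5 at least 33.2-fold lower, while Kit had a log2 ratio of -0.71. Their sum was 3677 against 17098. Of the 9, 3 (Hoxa5, Hoxa10 and Cd34) were below background in PirBTM and could not have counted as higher. The part of these cell types in the AP-1 values was not tested.

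**Figure D4:**
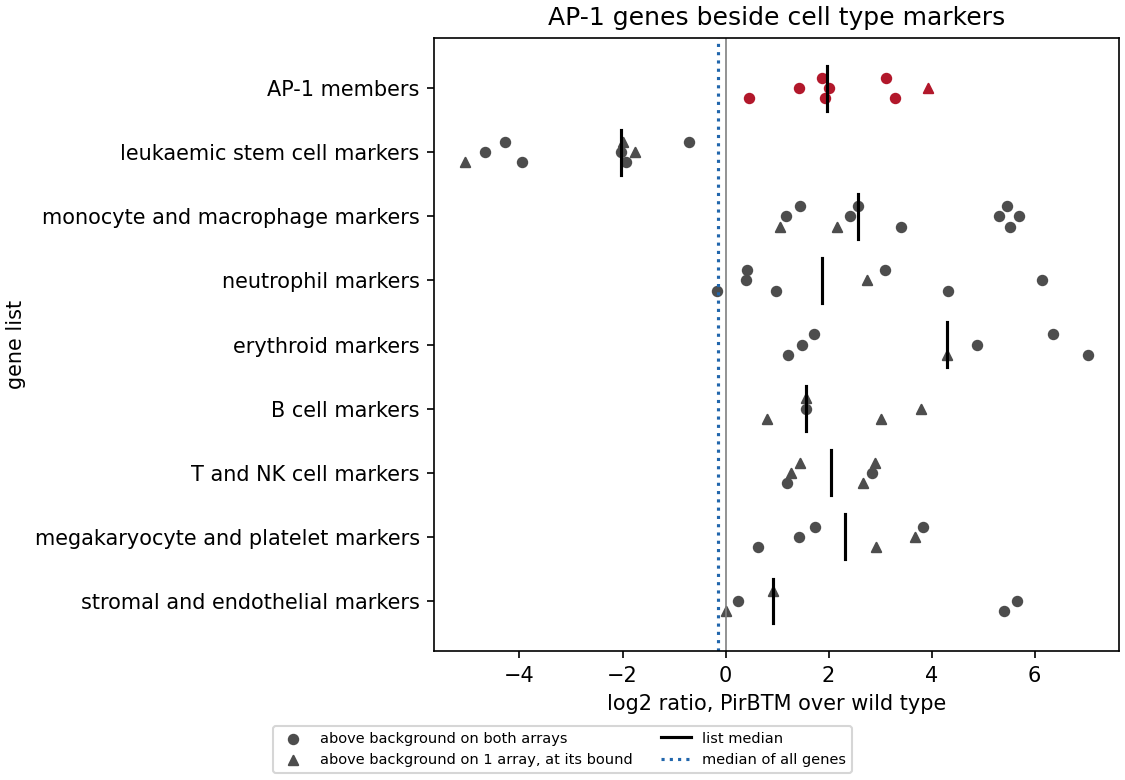
Log2 ratio of PirBTM over wild type for AP-1 genes (red) and 8 lists of cell type markers (grey), 1 point per gene above background on at least 1 array; triangles are bounds (0 where there is none), black bars list medians, and the dotted line the median of all genes. Leukaemic stem cell markers lie below 0 and the other marker lists mostly above it, on the same side as AP-1.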

How the data were processed

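Per the file headers, the deposited scanner table gives the average signal (a linear intensity) and the detection p-value of 45281 probes per array. The intensities were uncorrected and not normalized between arrays (medians of 161.3 for PirBTM and 148.2 for wild type), and 36.2% and 33.4% of probes were above background. A second deposited table of linear intensities ranks the probes as the scanner does (Spearman's rho of 1 on each array) and has nearly equal column medians (148.3 and 148.2). The sources used here do not name the software.

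Background was corrected with limma 3.58.1 (nec, offset 16, negative controls inferred from detection p-values) in R 4.3.3, followed by quantile normalization and log2. Simulated arrays with known folds were used to test the steps. Of the probes, 34885 had 1 gene in the platform annotation, 18 several and 10378 none, and 34807 were matched to RefSeq symbols (GRCm38.p6). The probe with the highest mean log2 intensity stood for its gene. A gene above background on 1 array has a bound, which sets the bright value against the dim one or, if that is higher, against the lowest value that passed the detection limit there. With 1 array per genotype there was no test. The number of arrays limits the precision.

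Named were the AP-1 genes, genes among the 2 highest and 2 lowest of each list (by bound where there is one) and the 3 genes nearest Junb in log2 ratio. Other genes, such as Nr4a1 and the markers below background, and the second probes were chosen after values had been seen. The members and lists were chosen with earlier results of these data known. The alternatives were no background correction, offset 50, median scaling, cyclic loess, the deposited processed values, a detection limit of 0.05, no detection filter, both arrays above background, the mean of probes, and 1.5-fold or 3-fold thresholds.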

Additional observations from a re-analysis of the deposited data

How the results depend on the processing

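The AP-1 count of 7 genes at least 2-fold higher was 6 without background correction, in the deposited processed values, with both arrays required above background and at 3-fold, and 7 otherwise. The count at least 2-fold lower was 0 in every alternative run. The median log2 ratio of 1.96 became 1.37 without background correction and 1.39 in the deposited processed values, and was at most 2.24. Over these settings the ratio of Fos ranged from 2.98 to 3.37, Junb from 3.11 to 3.54, Fosb from 1.55 to 2.12, Fosl2 from 1.08 to 1.69, Jund from 1.18 to 2.27, Jun from 0.96 to 2.21 and Batf from 0.39 to 0.69. The median of all genes ranged from -0.22 to 0.10, and the AP-1 median lay 1.48 to 2.25 above it. Among the list medians, that of AP-1 targets ranged from 0.82 to 2.07, other immediate early genes from 0.71 to 2.07, phosphatases from 1.21 to 2.17, other basic leucine zipper genes from 0.19 to 0.75, heat shock genes from -0.21 to 0.40 and stromal markers from 0.46 to 5.41. No paired analysis was possible because each genotype had 1 array, and no replicate could be left out. Signal close to background in the wild-type sample limits the folds of Jun, Jund and Atf3.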
